A study of Mus musculus with 48 samples.

Results

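Translation initiation factor mRNAs were followed through a block of transcription in mouse embryonic stem cells. The members were chosen by symbol: every gene whose mouse symbol starts with Eif and a digit, pseudogenes left out, that was listed in all 12 libraries of total RNA. This gave 47 genes of 23862 gene identifiers. The files held 60 symbols of this form. Of these, 6 were pseudogenes and 7 were missing from at least 1 total library. Eif2ak4 was listed in 10 of the 12, Eif4h in 11, Eif5a in 7, Eif4g1 in 6, Eif5 in 5, and Eif4e1b and Eif4enif1 in 0. All 47 members were listed in all 48 libraries of the 4 fractions, which 10694 genes were in all, so no member was lost to a further filter on missing values. The rule is itself such a filter, and statements on the members do not cover the 7 genes it left out.

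Initiation is the step at which the small ribosomal subunit is brought to the 5′ end of an mRNA and finds the start codon. eIF4F binds the cap, eIF3 bridges the cap complex and the small subunit, and eIF2 brings the initiator tRNA as a complex with GTP. eIF1 and eIF1A hold the scanning subunit open until the start codon is met, and eIF5B joins the large subunit. Cells adjust the process mainly through the 4E-BPs, which sequester the cap-binding protein eIF4E, and through kinases that phosphorylate the alpha subunit of eIF2 and so block its recycling by eIF2B.

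E14TG2a cells, an established line of mouse embryonic stem cells grown in 2i and LIF, were treated with 1 µM flavopiridol, an inhibitor of the P-TEFb kinase, without which RNA polymerase II does not enter elongation. Cells were harvested at 30, 60, 120 and 240 min, and polyadenylated RNA was sequenced from the whole extract (total RNA), the nucleus, the cytosol (released by digitonin) and the membrane fraction (released by a stronger detergent). There were 3 independently passaged replicates per fraction and time, which makes 48 libraries, all treated and all of 1 cell line. Each value is the scaled level of a gene divided by that at 0 min for the fraction concerned, so 1 means no change. The libraries from 0 min were not used here. P-values measure the spread between these passages of 1 cell line, together with any departure of the time course from the fitted straight line.

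Between 15067 and 19501 genes were listed per library. The read depth is unknown, and ratios allow no comparison of amounts between genes or fractions. Of 10 markers of naive embryonic stem cells, 8 were listed in all 48 libraries. Of 12 markers of endoderm, neural cells and fibroblasts, 1 (Tubb3) was, and Nes was listed in 47, Neurod1 in 45, Col1a1 in 44, Thy1 in 43 and Gata6 in 42. Listing says only that a value above 0 was found. The nuclear 30 min library of replicate 1 stood apart, with a median log2 ratio over all genes of -0.76 against -0.08 and -0.28 in replicates 2 and 3, and results from the nucleus were also computed without it. In these bulk samples, fewer cells of a type and less RNA per cell cannot be told apart.

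By slope, members of the family fell more slowly than the median gene in each fraction, where all genes include any that are not protein-coding. The change of the log2 ratio per h (the slope) was fitted with limma over the 12 libraries of a fraction, with Benjamini-Hochberg adjustment over all genes and a threshold of 0.05 on the adjusted p. The median slope of the members was -0.11 per h for total RNA, with -0.22 for all genes. The nuclear medians were -0.13 and -0.30, the cytosolic ones -0.18 and -0.28, and those of the membrane fraction -0.21 and -0.26. In the membrane fraction, though, the median log2 ratio of the members lay below that of all genes at 30 min (-0.16 and -0.11), 60 min (-0.50 and -0.39) and 120 min (-0.76 and -0.71), and above it at 240 min only (-0.94 and -1.075). The rank of a slope among all genes does not depend on how the libraries of a fraction are scaled. By rank, 31 of 47 members lay above the 50th percentile (slower decline than most genes) for total RNA, 34 for nuclear, 34 for cytosolic and 33 for membrane RNA, and 29 lay above it in all 4.

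In total RNA, 27 members fell and 2 rose as deposited, while after centring every library on the median gene 8 fell and 29 rose, and with scaling to the mitochondrially encoded mRNAs 42 fell and 0 rose. Centring sets the slope of the median gene near 0. A rise or fall after centring therefore means only a slower or faster decline than the median gene. Of all 12762 genes, 3961 fell and 3672 rose after it. Among all genes tested, 56.9% fell and 3.39% rose. In the nucleus 25 members fell and 1 rose (all genes: 61.9% and 3.32%), against 7 and 32 after centring and 5 and 1 after mitochondrial scaling. Among cytosolic slopes 37 fell and 1 rose (all genes: 67.1% and 2.95%), against 9 and 27 after centring and 3 and 0 after mitochondrial scaling. In the membrane fraction 35 fell and 1 rose (all genes: 62.2% and 4.09%), against 10 and 17 after centring and 46 and 0 after mitochondrial scaling. Without replicate 1 the membrane count of falls was 19 (40.4% of members, 50.2% of all genes), and without replicate 2 it was 23 (48.9% and 56.1%). Without replicate 3, 18 members fell in total RNA (38.3% and 46.1%). Without the 240 min libraries 11 members fell in the nucleus and 22 in the cytosol, beside 5669 of 14320 and 6349 of 12814 genes. The members' share was then below that of all genes in both fractions. As deposited, the share of members that fell was 57.4% in total RNA, beside 56.9% of all genes. It was lower than that of all genes in the nucleus (53.2%) and higher in the cytosol (78.7%) and the membrane fraction (74.5%). For total and membrane RNA, the order of the shares thus changed with the replicate left out. It also changed with the scaling. Genes tested numbered 12762 (total RNA), 13343 (nucleus), 11979 (cytosol) and 12408 (membrane fraction). Of these, 3961, 3897, 3887 and 3837 fell after centring, and the members' share was lower in each fraction. With mitochondrial scaling 9237, 2808, 3271 and 10586 fell. The members' share was then lower in the nucleus and cytosol and higher in total and membrane RNA.

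Centring raised the median slope of all genes by 0.23 (total RNA), 0.32 (nucleus), 0.28 (cytosol) and 0.26 (membrane fraction). Mitochondrial scaling moved it by -0.12, 0.19, 0.16 and -0.23 in the same order. The members whose fall passed the test under all 3 scalings are therefore set apart. With centring this requires a faster decline than that of the median gene. In total RNA these were Eif1a, Eif1ad, Eif2ak3, Eif2b2, Eif3a, Eif4a2, Eif4e2 and Eif4ebp3. In the nucleus they were Eif2ak3, Eif2b3, Eif4a2, Eif4e2 and Eif4g3, and in the cytosol Eif1a, Eif4e2 and Eif4ebp3. In the membrane fraction they were Eif1a, Eif1ad, Eif2ak3, Eif2b2, Eif2b3, Eif3a, Eif4a3, Eif4e2, Eif4ebp3 and Eif6. Eif4e2 was the member that appeared in all 4 lists. One rise passed under all 3, that of Eif2s3x in the nucleus. Directions of other members, single genes and groups alike, are those on the deposited scaling.

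**Figure D1:**
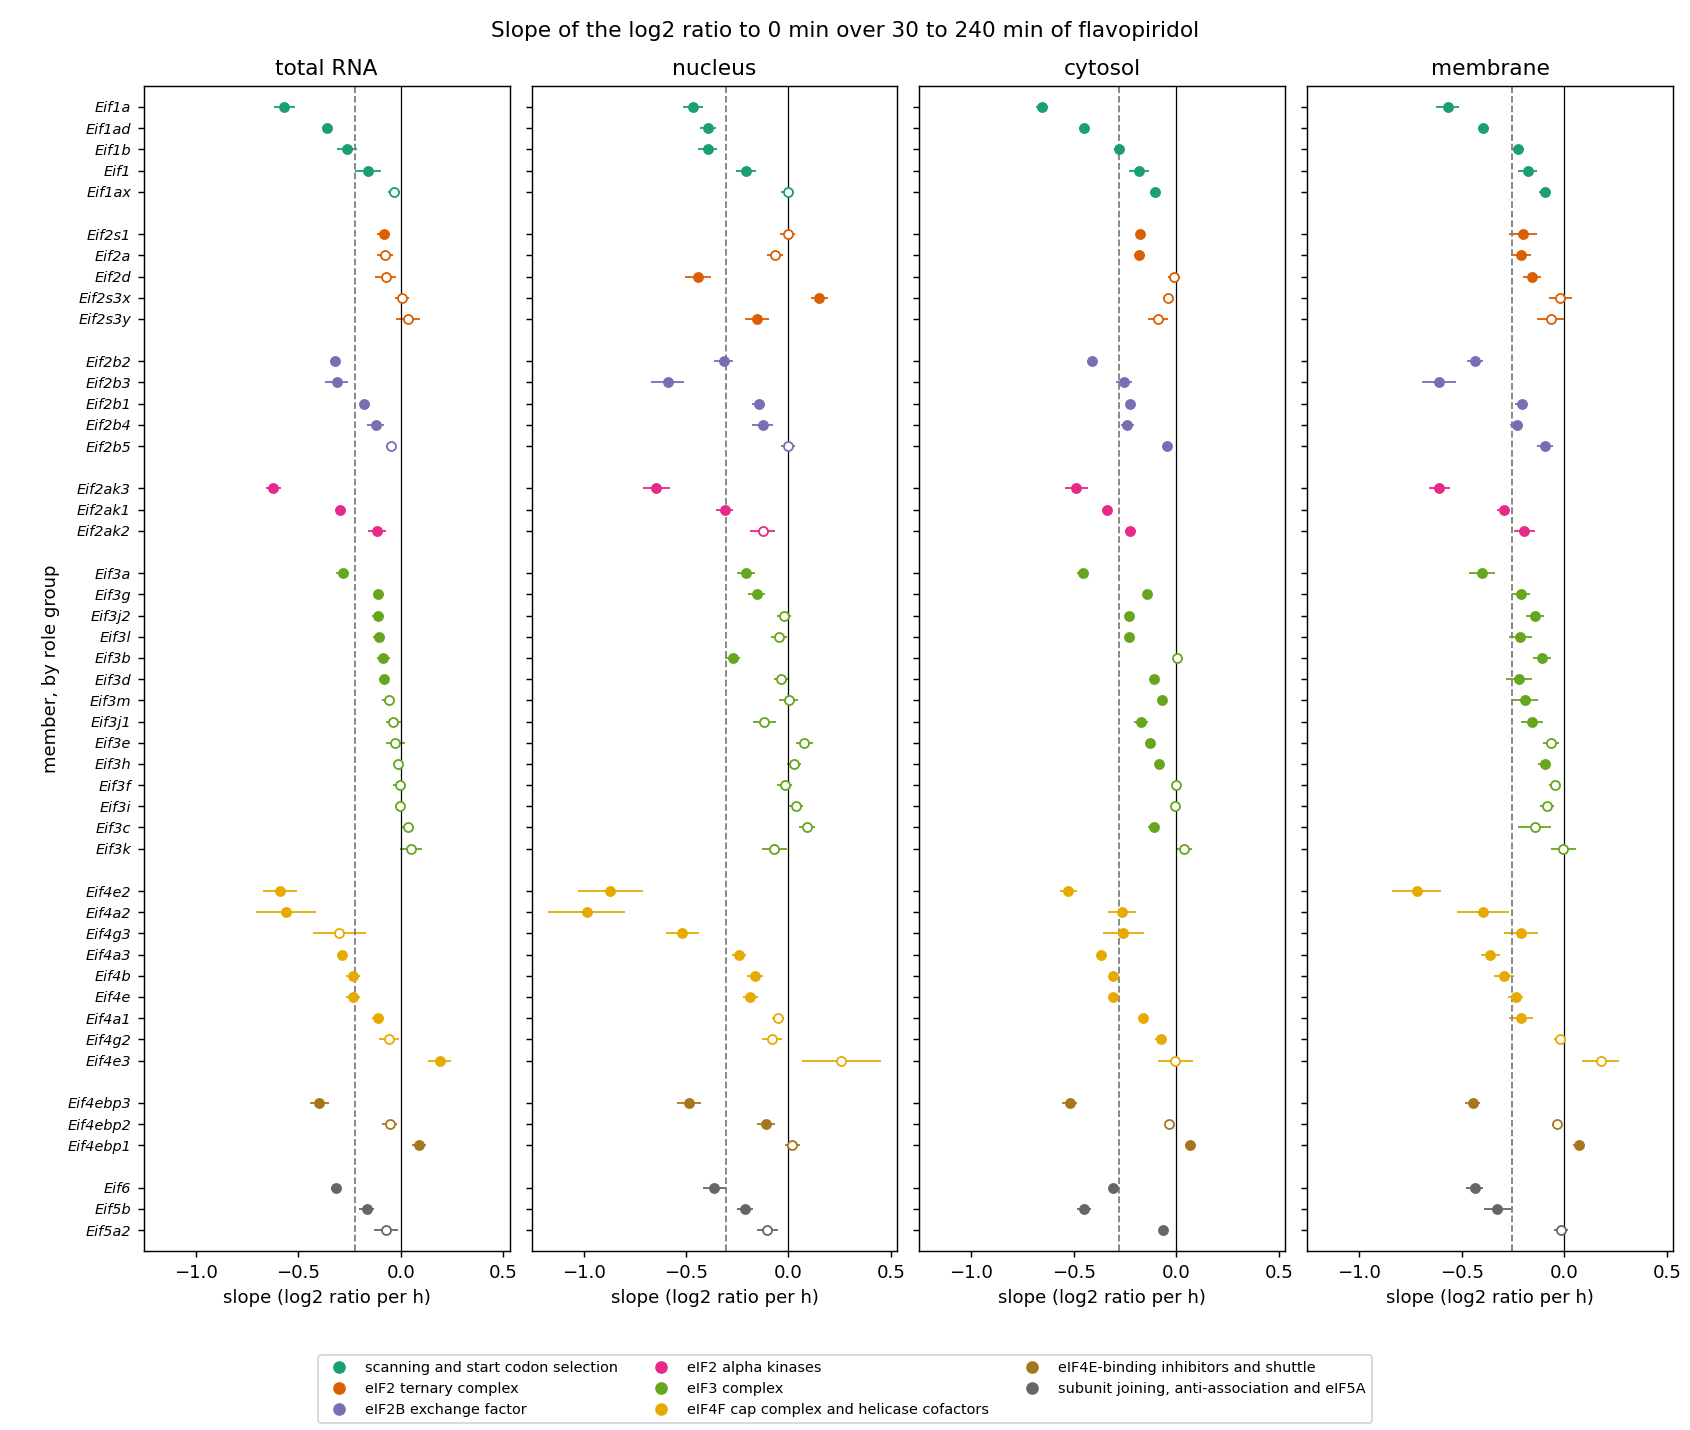
Change of the log2 ratio per h (slope, x axis) for the 47 members, grouped and coloured by role, in the 4 fractions. Points are limma slopes with standard errors over 12 libraries, filled where the adjusted p was under 0.05, the solid line is 0 and the dashed line is the median of all genes; on the deposited scaling most points lie between the dashed line and 0, and after centring on the median gene those points would lie above 0.

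After 240 min, a smaller share of members than of all genes was far below its start. All 3 ratios were below 0.5 for 12 members in total RNA (25.5%, all genes 43.9%), 14 in the nucleus (29.8%, all genes 57.0%), 13 in the cytosol (27.7%, all genes 43.0%) and 15 in the membrane fraction (31.9%, all genes 41.9%). All 3 ratios were above 1 for 3 members in total RNA (all genes 7.53%), 8 in the nucleus (all genes 8.66%), 1 in the cytosol (all genes 6.20%) and 2 in the membrane fraction (all genes 8.56%). The 3 in total RNA were Eif3c, Eif4e3 and Eif4ebp1. The 8 in the nucleus were Eif1ax, Eif2s1, Eif2s3x, Eif3c, Eif3e, Eif3h, Eif3i and Eif3m, 5 of them subunit genes of eIF3. These counts leave out the 7 genes outside the rule, of which Eif4h and Eif2ak4 were listed in the most total libraries. Mean ratios of Eif4h were 0.42 at 30 min and 0.1585 at 240 min in total RNA, and 0.4726 and 0.0654 in the nucleus. Those of Eif2ak4 in total RNA were 0.9061 and 0.3505, the latter from 2 libraries.

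Half-lives were fitted as a single exponential to the ratios of each fraction with the level at 0 min left free, so they describe the decline from 30 min on and not a loss before that, and errors are the SD over fits to the 3 replicate series. For total RNA the median of the members was 545 ± 62.3 min, with 244 min for all genes. For nuclear RNA it was 409 ± 246 min (all genes 176 min), for cytosolic RNA 342 ± 72.7 min (213 min) and for membrane RNA 255 ± 85.5 min (219 min). No finite half-life could be fitted to 6 members for total RNA, 8 for nuclear, 3 for cytosolic and 2 for membrane RNA, and these were counted as longer than any finite value. Fits over 30 to 120 min gave 306 min in total RNA and 160 min in the membrane fraction, and mitochondrial scaling gave 262 min for total, 2727 min for cytosolic and 96.7 min for membrane RNA and no finite median for the nucleus. Centring gave no finite median in any fraction. Half-lives above the 240 min observed are extrapolations. The median for total RNA lay above those of the nucleus, cytosol and membrane fraction. For Eif4ebp3 the mean ratio at 240 min was 0.312 in total RNA, above 0.234 (nucleus), 0.232 (cytosol) and 0.247 (membrane fraction), while that of Eif4a1 lay within its fractions. Each fraction has its own scaling, so comparisons of slopes and half-lives between fractions rest on it too. The reason was not tested.

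Many mRNAs of the translation machinery begin with a run of pyrimidines at the cap (the 5′ terminal oligopyrimidine motif), through which LARP1 and the mTOR pathway control them. The starts in the RefSeq table were searched for a run of at least 5 C or T that opens with a C within 5 bases of the start. Of 47 members, 36 had a start in the table, and 10 of these held such a run (27.8%), beside 21.2% of all 27025 genes in the table. A run of 8 or more, a length chosen after the values were seen, stood at 6 members (16.7%) and 5.17% of all genes. These 6 windows are printed to show how unlike in length and base order the runs are, with Eif4a2, the member with the lowest total RNA ratios at 240 min, and its paralog Eif4a1 for contrast. Each holds 10 bases before the annotated start and 20 from it on, with the run in capitals, in GRCm38.p6.

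Eif3f (chr7:108934405-108934434, plus strand): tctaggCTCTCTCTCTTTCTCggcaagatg
Eif2s3x (chrX:94212632-94212661, minus strand): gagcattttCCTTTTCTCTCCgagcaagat
Eif2s3y (chrY:1010585-1010614, plus strand): ggccacagccaCTTCCTTCTTTCgtgagca
Eif3l (chr15:79075213-79075242, plus strand): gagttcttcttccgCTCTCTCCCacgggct
Eif2b2 (chr12:85219471-85219500, plus strand): ccgagcggaagttgaCCTCTCTCggcccgg
Eif2b5 (chr16:20498807-20498836, plus strand): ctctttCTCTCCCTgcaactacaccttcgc
Eif4a2 (chr16:23107458-23107487, plus strand): gaaaccccgtaggagcagggcggccgagga
Eif4a1 (chr11:69672404-69672433, minus strand): gtaacgtcacgtcgagttgcagagcgccgg

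Counted from a C within 5 bases of the start, the run was 15 bases in Eif3f, 12 in Eif2s3x and Eif2s3y, 9 in Eif3l and 8 in Eif2b2 and Eif2b5. It opened after the annotated start in Eif2b2 (by 5 bases), Eif3l (4) and Eif2s3y (1), so not at the annotated cap. In Eif2s3x and Eif2b5 further pyrimidines stood directly before the capitals and were not counted. In Eif2s3x this was because a run had to open with a C, and in Eif2b5 because the next C lay outside the limit. The lengths thus depend on these rules. The 3 members with a run of at least 12 had total RNA slopes of -0.01 (Eif3f), 0.01 (Eif2s3x) and 0.03 (Eif2s3y), none of which passed the test. The 10 members with a run of at least 5 ranged from -0.62 (Eif2ak3) to 0.03 (Eif2s3y), with a median of -0.09, and the median of the 26 without one was -0.11. A match to these letters is a description of the annotated start and not of the start used in these cells.

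The cap complex held members from both ends of the family's range, with total RNA slopes from -0.59 (Eif4e2) to 0.19 (Eif4e3). eIF4A is the helicase that unwinds the 5′ end, and its genes Eif4a1 and Eif4a2 encode proteins with 89.9% identical residues. In total RNA the ratios of Eif4a2 in the 3 replicates were 0.273, 0.335 and 0.328 at 30 min, 0.0925, 0.0818 and 0.0943 at 60 min, and 0.0524, 0.0688 and 0.0456 at 240 min. Those of Eif4a1 were 0.931, 0.995 and 0.962 at 30 min and 0.763, 0.730 and 0.716 at 240 min. The paralogs did not overlap at any of the 4 times, and most of the loss of Eif4a2 came before 60 min.

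The fitted half-life of Eif4a2 was 21.1 ± 4.09 min in total RNA and 13.1 ± 4.57 min in the nucleus, but 187 ± 66.3 min for cytosolic and 65.3 ± 32.3 min for membrane RNA. The cytosolic and membrane values do not give the time to fall from the starting amount, because the level at 0 min was free. Cytosolic ratios were already at 0.447, 0.537 and 0.561 by 30 min, and membrane ratios at 0.258, 0.362 and 0.426. Its nuclear ratios went from 0.139, 0.277 and 0.235 at 30 min to 0.0111, 0.0126 and 0.0132 at 240 min. In the cytosol they were at 0.194, 0.275 and 0.241 at 240 min. The nuclear and cytosolic ratios did not overlap at either time. For Eif4a1 the half-life was 572 ± 93.6 min in total RNA and 379 ± 22.4 min in the cytosol. Eif4a3, whose product is the helicase of the exon junction complex rather than of the cap complex, lay between them at 207 ± 16.6 min in total RNA.

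Eif4e, the cap-binding protein, and Eif4e2, a homolog that binds caps but does not engage eIF4G and acts in translational repression, share 27.2% of residues. Ratios of Eif4e2 in total RNA were 0.523, 0.745 and 0.514 at 30 min and 0.0986, 0.150 and 0.118 at 240 min. Ratios of Eif4e were 0.855, 0.983 and 0.979 at 30 min and 0.521, 0.531 and 0.538 at 240 min, so the homologs did not overlap at either time. The slope of Eif4e2 was -0.59 ± 0.08 (SE) per h for total, -0.87 ± 0.16 for nuclear, -0.53 ± 0.04 for cytosolic and -0.72 ± 0.12 for membrane RNA, with limma adjusted p from 1.73e-07 to 0.000345. Its half-life was 59.2 ± 20.6 min in total RNA and 105 ± 8.50 min in the cytosol.

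Eif4g3, which encodes a form of the eIF4G scaffold, went in the nucleus from 0.917, 1.74 and 1.53 at 30 min to 0.513, 0.345 and 0.360 at 240 min, with no overlap (slope -0.52 ± 0.08, limma adjusted p = 9.02e-05). Its total RNA slope of -0.30 ± 0.13 did not pass (0.0615).

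Eif4e3, a further homolog of the cap-binding protein, rose in total RNA (slope 0.19 ± 0.06, limma adjusted p = 0.0102), with ratios of 0.907, 0.780 and 0.875 at 30 min and 1.5, 1.15 and 1.32 at 240 min. All of the rise came after 120 min, where the ratios were 0.649, 0.951 and 0.783, and over 30 to 120 min the slope was -0.08. Without replicate 2 or 3 the adjusted p was 0.0806 and 0.0822. Nuclear ratios of Eif4e3 at 30 min were 0.565, 1.63 and 0.122, so replicates disagreed on its direction there. Eif4b, a cofactor of the helicase, fell in all 4 fractions on the deposited scaling, with slopes from -0.31 in the cytosol to -0.16 in the nucleus. Eif4g2, a scaffold related to eIF4G that works without eIF4E, had slopes from -0.08 to -0.02, of which that in the cytosol passed the test (-0.07 ± 0.03, limma adjusted p = 0.0462). That slope was 0.07 over 30 to 120 min, 0.21 after centring and 0.08 with mitochondrial scaling.

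The 3 genes for eIF4E-binding inhibitors ran in different directions. The ratios of Eif4ebp1 in total RNA were 0.994, 0.923 and 0.913 at 30 min and 1.13, 1.25 and 1.17 at 240 min. Those of Eif4ebp3 were 0.772, 0.913 and 0.894 at 30 min and 0.3, 0.315 and 0.322 at 240 min. Eif4ebp2 was at 0.865, 0.895 and 0.951 and at 0.789, 0.756 and 0.801. All 3 libraries of Eif4ebp1 at 240 min lay above 1 and above every library of the other inhibitor genes in total RNA.

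The rise of Eif4ebp1 passed the test in total RNA (slope 0.09 ± 0.03), the cytosol (0.06 ± 0.02) and the membrane fraction (0.07 ± 0.03), with limma adjusted p of 0.0291, 0.0147 and 0.0432. With mitochondrial scaling its slope was -0.03 in total RNA and -0.15 in the membrane fraction, and without replicate 2 or 3 none of the 3 rises passed, while without replicate 1 that in the cytosol did (0.0244). Over 30 to 120 min none of the 3 rises passed, with slopes of -0.06 for total, 0.02 for cytosolic and 0.05 for membrane RNA. Its percentile among all genes was 90.6 for total, 92.4 for cytosolic and 90.4 for membrane RNA. Eif4ebp3 fell in all 4 fractions, with half-lives of 154 ± 28.8 min in total RNA and 131 ± 5.71 min in the cytosol, and under all 3 scalings in each fraction except the nucleus.

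**Figure D2:**
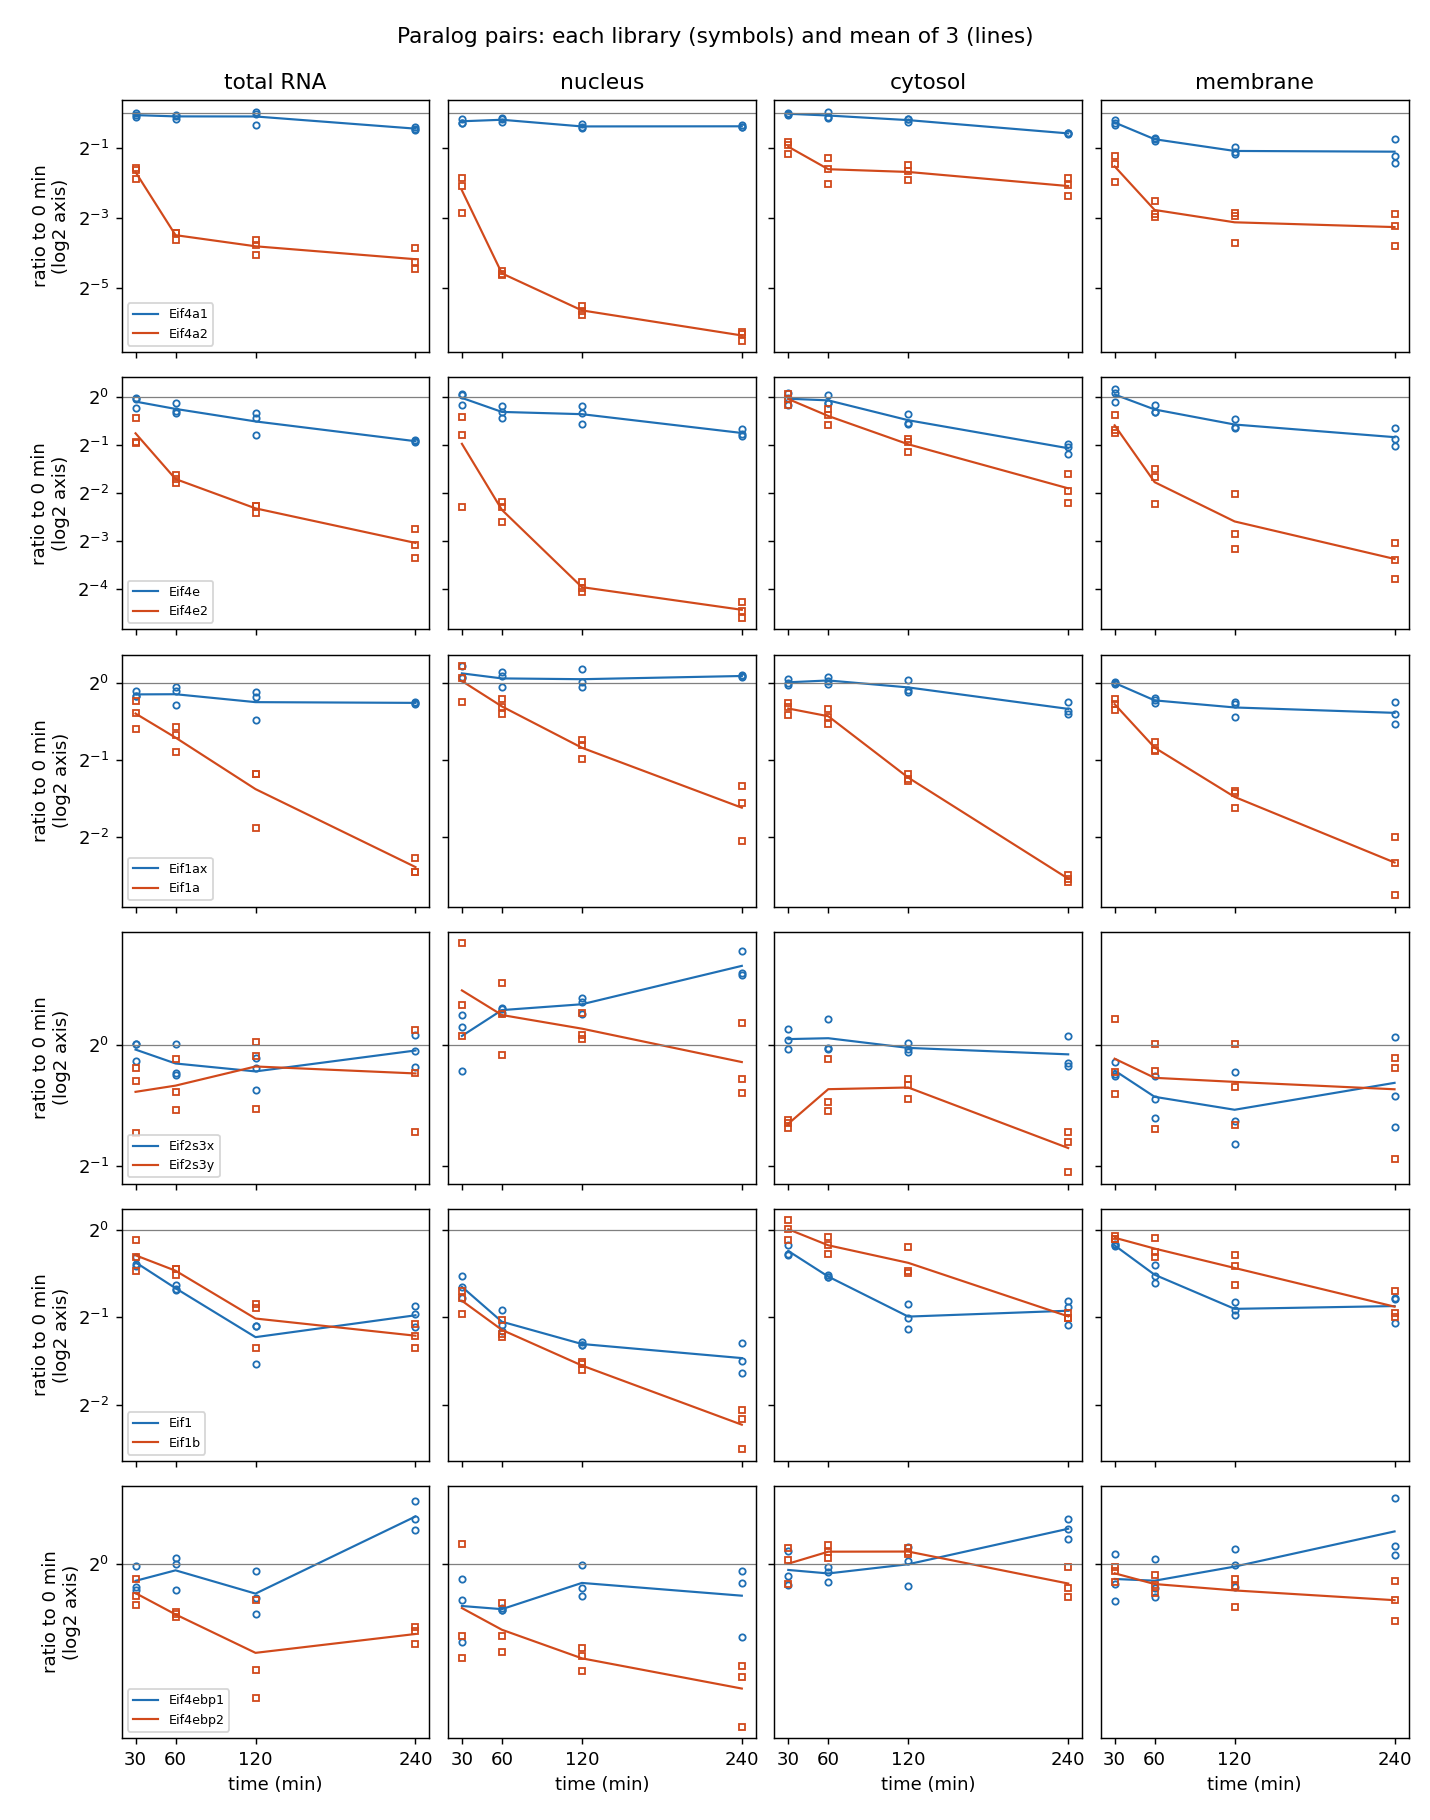
Ratio to 0 min (y axis, log2 scale) against time (min) for 6 pairs of related members in the 4 fractions. Symbols are single libraries (circles for the first gene named, squares for the second), lines join the means of 3, and the grey line is a ratio of 1; Eif4a2, Eif4e2 and Eif1a lie apart from their partners in total RNA and in the nucleus at 240 min, while Eif2s3x and Eif2s3y overlap there in total RNA.

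Among the 5 genes for scanning and start codon selection, 4 fell in total RNA (80%, all genes 56.9%) and in the nucleus and all 5 in the cytosol and the membrane fraction as deposited, and in the cytosol Eif1, Eif1ax and Eif1b were above 0 after centring. Eif1a and Eif1ax encode forms of eIF1A with 98.6% identical residues. Ratios of Eif1a in the cytosol were 0.748, 0.804 and 0.837 at 30 min and 0.168, 0.178 and 0.172 at 240 min, and those of Eif1ax were 0.980, 1.04 and 1.00 and then 0.848, 0.757 and 0.776. The pair did not overlap at either time. The half-life of Eif1a was 99.3 ± 12.1 min for total RNA, 119 ± 37.1 min for nuclear, 98.2 ± 6.66 min for cytosolic and 85.7 ± 13.6 min for membrane RNA. In total RNA its slope had a percentile of 18.1 among all genes and that of Eif1ax one of 76.3.

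Eif1 and Eif1b, which encode forms of the start codon gatekeeper eIF1 with 92% identical residues, were closer to each other. In total RNA at 240 min Eif1 was at 0.463, 0.546 and 0.515 and Eif1b at 0.392, 0.474 and 0.429, so the pair overlapped. Eif1 had reached 0.345, 0.468 and 0.468 at 120 min, and its ratios at 240 min overlapped these. Eif1ad, which encodes a protein with an eIF1A-like domain, fell in all 4 fractions with half-lives from 137 ± 2.71 min in the cytosol to 162 ± 8.43 min in total RNA.

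Eif2s1 encodes its alpha subunit, the target of the stress kinases, and Eif2s3x and Eif2s3y encode forms of the gamma subunit from the X and the Y chromosome with 97.9% identical residues. Of the 5 members of this group (with Eif2a and Eif2d, alternative carriers of initiator tRNA), 1 fell and 0 rose in total RNA on the deposited scaling (20%, all genes 56.9%), and the median slope was -0.07. In the nucleus 2 fell and 1 rose, in the cytosol 2 fell and in the membrane fraction 3 fell (60%, all genes 62.2%). The 1 that fell was Eif2s1 (-0.08 ± 0.03, limma adjusted p = 0.0386), with a percentile of 69.1 among all genes, and its slope was 0.15 after centring.

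In the nucleus the ratios of Eif2s3x were 0.859, 1.19 and 1.11 at 30 min, 1.23, 1.2 and 1.23 at 60 min and 1.51, 1.48 and 1.71 at 240 min. Its nuclear slope was 0.15 ± 0.04 per h (limma adjusted p = 0.00474), at percentile 94.5, and it stayed above 0 under all 3 scalings. Centring and mitochondrial scaling both raise every nuclear slope, so this sign could not change. Without replicate 3 the adjusted p was 0.0746. The nuclear ratios of Eif2s3y were 1.25, 1.78 and 1.05 at 30 min and 0.759, 0.824 and 1.13 at 240 min, and its nuclear slope was -0.15 ± 0.06 (limma adjusted p = 0.0339), which turned to 0.16 with centring and 0.04 with mitochondrial scaling. The 240 min ratios of the X and Y copies did not overlap in the nucleus and overlapped in total RNA. The coding sequences share 86.3% of bases, and how reads common to both were divided was not tested.

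eIF2B, the exchange factor that recharges eIF2, has 5 subunits, all of them members. On the deposited scaling 4 of the 5 fell in total RNA (80%, all genes 56.9%) and all 5 fell in the cytosol and the membrane fraction, and after centring the cytosolic slopes of Eif2b1, Eif2b3, Eif2b4 and Eif2b5 were above 0. Eif2b2 had the lowest slope of the 5 in total RNA (-0.32), with ratios of 0.979, 0.958 and 0.912 at 30 min and 0.422, 0.448 and 0.441 at 240 min and a half-life of 183 ± 7.19 min. That of Eif2b3 was 167 ± 104 min. Eif2b5, the catalytic subunit, was at 0.913, 0.970 and 0.957 and then at 0.904, 0.845 and 0.787, and its slope in total RNA (-0.05 ± 0.02) did not pass. The Eif2b2 and Eif2b5 ratios overlapped at 30 min and not at 240 min.

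Of the kinases that phosphorylate eIF2 alpha, Eif2ak3 (PERK, the sensor in the endoplasmic reticulum) fell fastest. Its total RNA ratios were 0.684, 0.824 and 0.744 at 30 min and 0.184, 0.180 and 0.151 at 240 min, with a half-life of 106 ± 11.5 min and the lowest total RNA slope of any member (-0.62 ± 0.04, limma adjusted p = 4.48e-08). In the membrane fraction it stayed near its start for 60 min, with ratios of 1.14, 0.962 and 1.07, and was at 0.254, 0.273 and 0.225 at 240 min. Eif2ak1 (the heme-regulated kinase) had a half-life of 209 ± 10.9 min in total RNA. Eif2ak2 (PKR, the sensor of double-stranded RNA) fell in total RNA, the cytosol and the membrane fraction on the deposited scaling, and its slopes there were above 0 after centring.

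eIF3 is the largest initiation factor, and 14 of its genes were members. On the deposited scaling 6 of the 14 fell and 0 rose in total RNA (42.9%, all genes 56.9%). The counts were 3 and 0 for nuclear (21.4%, all genes 61.9%), 10 and 0 for cytosolic (71.4%, all genes 67.1%) and 9 and 0 for membrane RNA (64.3%, all genes 62.2%). The median percentile of their slopes among all genes was 74.4 (total RNA), 82.4 (nucleus), 73.1 (cytosol) and 65.4 (membrane fraction). Eif3a, the scaffold subunit, fell fastest, with ratios of 0.888, 0.886 and 0.919 at 30 min and 0.451, 0.430 and 0.422 at 240 min in total RNA. Its half-life was 192 ± 7.11 min in total RNA and 141 ± 13 min in the cytosol. Eif3f, whose start has the longest marked run, was at 0.999, 0.930 and 1.04 in total RNA and 0.907, 0.965 and 0.978 in the cytosol at 240 min, and none of its 4 slopes passed the test.

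Nuclear ratios of several eIF3 genes stood above 1. Eif3e was at 1.56, 1.71 and 1.38 at 30 min and at 1.8, 1.72 and 2.01 at 240 min in the nucleus. Eif3m was at 1.46, 1.73 and 1.73 and then at 1.55, 1.65 and 1.93. Neither nuclear slope passed the test, so the higher level was already there at 30 min. The same genes in the cytosol at 240 min were at 0.731, 0.679 and 0.708 (Eif3e) and at 0.911, 0.873 and 0.976 (Eif3m), below every nuclear library.

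Eif3k ran the other way. Its nuclear ratios were 0.351, 0.368 and 0.371 at 30 min and 0.362, 0.310 and 0.310 at 240 min, while in total RNA they were 0.706, 0.728 and 0.826 and then 0.914, 0.812 and 0.801. None of its 4 slopes passed the test, although the nuclear ratio was low throughout. A slope from 30 min on does not see a difference from 0 min that was already there at 30 min. The 0 min libraries were not used, so whether RNA was lost before 30 min was not tested. Its slope in total RNA (0.05 ± 0.05) was the highest of the subunit genes. Eif3j1 and Eif3j2 share 99.2% of coding bases and Eif3j2 has a single exon, so their reads may have been divided between them and their values are uncertain. At 240 min in total RNA Eif3j1 was at 0.723, 0.737 and 0.723 and Eif3j2 at 0.681, 0.690 and 0.642.

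**Figure D3:**
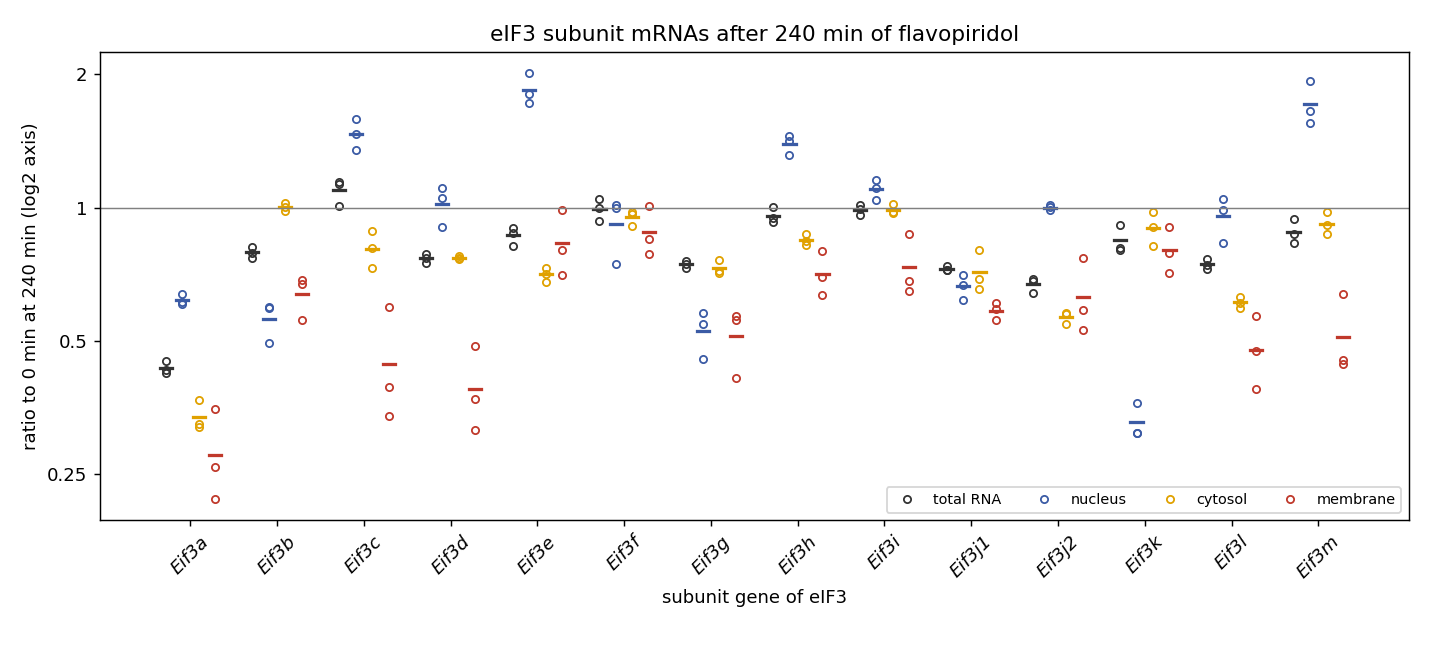
Ratio to 0 min at 240 min (y axis, log2 scale) of the 14 eIF3 subunit genes in the 4 fractions. Points are the 3 libraries and bars their means; nuclear points of Eif3c, Eif3e, Eif3h, Eif3i and Eif3m lie above 1 in all 3 libraries, those of Eif3k lie between 0.310 and 0.362, and all depend on the deposited scaling.

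The late factors were few. eIF5B joins the subunits, eIF6 keeps the large subunit from joining too early, and Eif5a2 encodes a form of eIF5A, which helps ribosomes past difficult stretches. Eif6 fell in all 4 fractions, from 0.912, 0.927 and 0.986 at 30 min to 0.455, 0.449 and 0.448 at 240 min in total RNA, with half-lives from 118 ± 7.05 min in the membrane fraction to 196 ± 11.1 min in total RNA. Eif5b was at 0.573, 0.550 and 0.557 in total RNA and at 0.392, 0.310 and 0.339 in the cytosol at 240 min. Eif5a2 had a slope of -0.07 ± 0.06 in total RNA, which did not pass, and of -0.06 ± 0.02 in the cytosol, which did (limma adjusted p = 0.0135) and which was 0.22 after centring.

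Whether an mRNA declined at another rate in the nucleus than in the cytosol was tested as the difference of slopes over the 24 libraries of both fractions. The slope was lower in the nucleus for 4 members (Eif4a2, Eif2d, Eif2b3 and Eif3b) and higher for 15, beside 8.30% lower and 12.3% higher among all genes tested. The members' shares were 8.51% and 31.9%. After centring 4 were lower and 20 higher, beside 1000 and 2272 of all 11232 genes tested. With mitochondrial scaling 0 were lower and 0 higher, and few of all 11232 genes passed either (7 lower and 1 higher). Either scaling moved every difference by the same amount, 0.0348 with centring and 0.0347 with mitochondrial scaling. The smallest of the 19 was 0.10 in size, so none could change sign. The loss of calls with mitochondrial scaling thus came with little change in the sizes of the differences. The higher count was 10 without replicate 1 (21.3%, all genes 4.71%), 7 without replicate 2 (14.9%, all genes 5.79%) and 4 without replicate 3 (8.51%, all genes 2.73%). In the same order the lower count was 2 (4.26%, all genes 5.9%), 3 (6.38%, all genes 2.74%) and 2 (4.26%, all genes 1.66%). Without the 240 min libraries 0 were higher and 3 lower, beside 370 and 531 of 11941 genes.

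Eif3b, the subunit that holds the RNA-binding core of eIF3, had the lowest adjusted p. Its nuclear ratios went from 0.949, 1.19 and 1.15 at 30 min to 0.593, 0.596 and 0.494 at 240 min, and its cytosolic ratios from 1.04, 0.963 and 1.02 to 1.00, 1.02 and 0.982. The difference of slopes was -0.28 ± 0.04 per h (limma adjusted p = 7.90e-05). It passed without each replicate in turn, with adjusted p up to 0.0288, and did not pass with mitochondrial scaling (0.671).

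Eif2d showed a wider gap. It went from 0.597, 0.974 and 0.823 to 0.253, 0.312 and 0.222 in the nucleus and from 0.700, 0.766 and 0.844 to 0.776, 0.808 and 0.784 in the cytosol, so the fractions did not overlap at 240 min. The difference was -0.43 ± 0.07 (limma adjusted p = 0.000192), with adjusted p up to 0.0284 without a replicate and 0.390 with mitochondrial scaling. For Eif4a2 the difference was -0.72 ± 0.20 (limma adjusted p = 0.0154), and it was lost without each replicate in turn, with adjusted p from 0.0901 to 0.106. Adding a pseudocount of 1 to the ratios, which compresses low values, turned it to 0.01 (limma adjusted p = 0.836). The percentile of its slope was 6.3 in the nucleus and 51.9 in the cytosol. For Eif2b3 it was -0.33 ± 0.09 (limma adjusted p = 0.0121), lost without replicate 1 (0.0725) or 3 (0.159).

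The 15 members with a higher nuclear slope included 6 of eIF3 (Eif3a, Eif3c, Eif3e, Eif3h, Eif3j2 and Eif3l) and 3 of the cap complex (Eif4a1, Eif4b and Eif4e). The others were Eif4a3, Eif1a, Eif1ax, Eif2s1, Eif2s3x and Eif5b. Differences ranged from 0.10 (Eif1ax) to 0.25 (Eif3a) per h. Those of Eif3a, Eif3j2 and Eif5b passed without each replicate in turn. With mitochondrial scaling none of the 15 passed, and 1 of all 11232 genes was higher. With the harvest (time and replicate number) as a block 13 of the 15 passed, and Eif1ax and Eif4e did not.

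Among them, Eif3a went from 0.831, 1.27 and 1.13 to 0.636, 0.611 and 0.607 in the nucleus between 30 and 240 min, and from 0.964, 0.945 and 1.03 to 0.368, 0.319 and 0.324 in the cytosol (difference 0.25 ± 0.05, limma adjusted p = 0.00139). Eif5b went from 0.830, 1.09 and 0.941 to 0.586, 0.570 and 0.500 in the nucleus and from 0.995, 0.947 and 1.03 to 0.392, 0.310 and 0.339 in the cytosol (0.24 ± 0.05, 0.00122). Eif2s1 was at 1.16, 1.18 and 1.28 in the nucleus and at 0.675, 0.650 and 0.618 in the cytosol at 240 min (0.17 ± 0.04, 0.00174). In each of these genes the fractions overlapped or lay close at 30 min and were apart at 240 min, except Eif2s1, which was at 1.28, 1.24 and 1.22 in the nucleus and at 0.966, 0.965 and 0.983 in the cytosol at 30 min already.

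**Figure D4:**
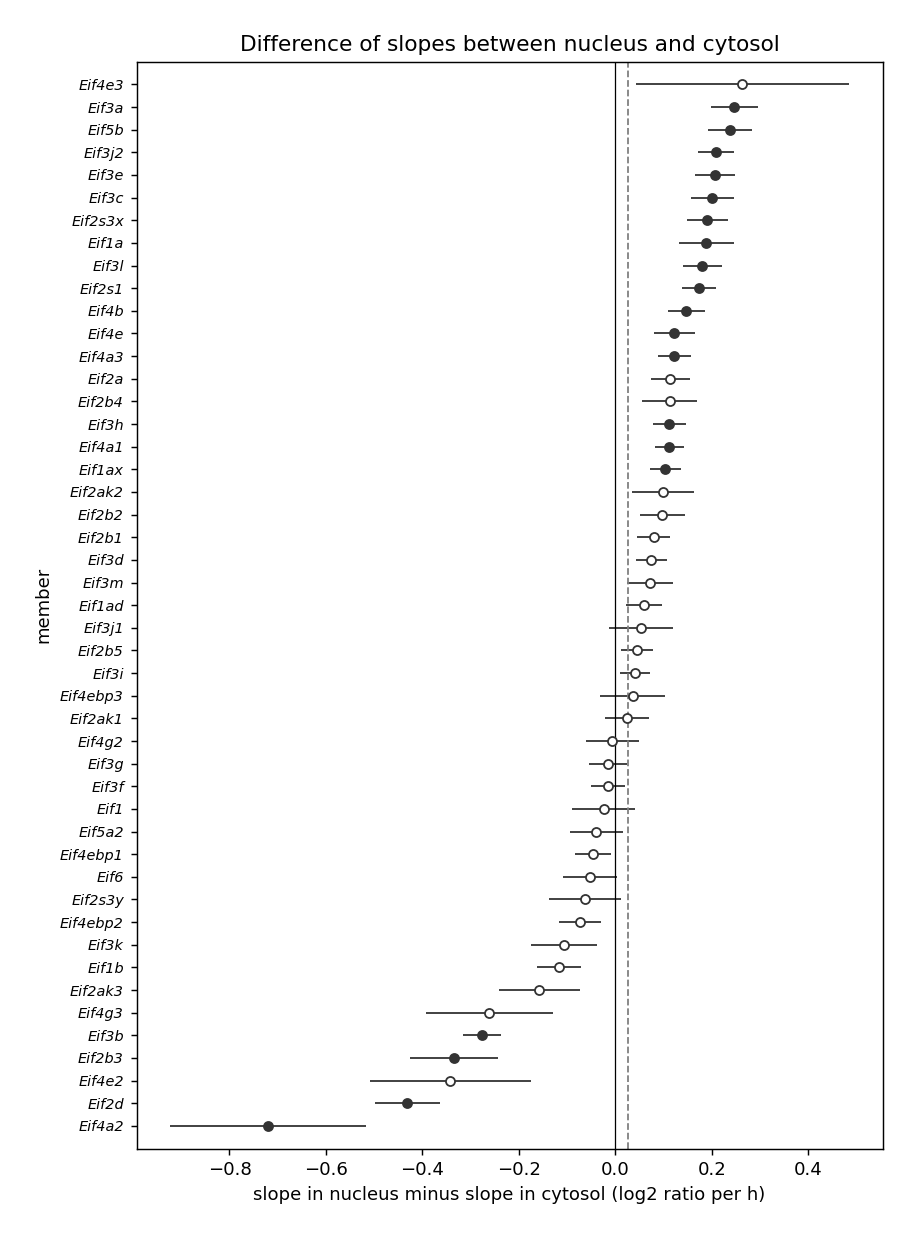
Slope in the nucleus minus slope in the cytosol (log2 units per h, x axis) for the 47 members in order of size. Points are limma estimates with standard errors over 24 libraries, filled where the adjusted p was under 0.05. The dashed line is the median of all genes (0.03). Of the filled points 4 lie below 0 and 15 above. With mitochondrial scaling none would be filled, and of all 11232 genes 7 were lower and 1 higher.

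The membrane fraction and the cytosol differed in slope for 1 member. Eif2b3, a subunit gene of eIF2B, fell faster in the membrane fraction, from 1.02, 1.15 and 0.891 at 30 min to 0.175, 0.234 and 0.335 at 240 min, than in the cytosol, where it went from 0.998, 0.965 and 0.904 to 0.548, 0.550 and 0.488. The difference was -0.36 ± 0.09 per h (limma adjusted p = 0.0192), and without replicate 1 or 2 it did not pass (0.297 and 0.127). No member had a higher slope in the membrane fraction by limma (0 of 47). Among all genes tested, 1.76% were lower and 4.94% higher. After centring 4 members were lower and 0 higher, beside 285 and 477 of all 11086 genes. With mitochondrial scaling 43 were lower and 0 higher, beside 6276 and 5 of all 11086 genes.

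A list of 64 other genes of translation and its control was read in the same way, with 47 tested in total RNA, of which 61.7% fell (all genes 56.9%). On the deposited scaling, of the 9 genes listed under elongation and tested in total RNA, 2 fell and 0 rose (22.2%), with slopes from -0.46 (Eef1e1) to 0.06 (Eef2k). Not all genes of this list encode elongation factors. Of the 7 genes of the integrated stress response, which lies downstream of the eIF2 kinases, 6 fell and 0 rose (85.7%), from -1.09 (Nck1) to 0.02 (Impact), with a median percentile of 13.7 among all genes. Atf4, the transcription factor that this response induces, had a slope of -0.97 ± 0.10 (limma adjusted p = 4.05e-06).

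These sets are small, so their shares are coarse, and 56.9% of all genes fell in total RNA. Of the 9 genes of the mTOR arm tested, 6 fell and 0 rose (66.7%), from -1.12 (Ddit4) to 0.01 (Deptor). All 4 termination genes tested fell (100%), from -1.61 (Pelo) to -0.11 (Etf1). Of the 8 mitochondrial translation factors 6 fell and 0 rose (75%), from -0.97 (Mtrf1l) to 0.12 (Gfm2). Of the 7 auxiliary helicase and recycling genes 5 fell and 0 rose (71.4%), from -0.27 (Ltn1) to -0.03 (Mcts1), and of the 3 partners of the cap complex 0 fell and 0 rose by limma (0%), from -0.15 (Paip1) to 0.02 (Pabpc1). These directions shift with the scaling as those of the members do. The eIF2 kinases and the eIF2B genes lay between the stress response genes and the genes listed under elongation, with median percentiles of 41.1 and 56.1 in total RNA beside 13.7 and 80.0.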

How the data were processed

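Polyadenylated RNA of 48 libraries (4 fractions, 4 times, 3 replicates) was analysed from tables of ratios. As the processing notes and methods state, reads were aligned by the authors to mm10 with STAR 2.7.6. They quantified genes with RSEM 1.3.3, scaled each library on genes of long half-life and divided by 0 min, and the deposited values are these ratios to 0 min. Genes at 0 were not listed, and read depths and counts are not given, so no counting error could be stated. Symbols were matched for 23786 of 23862 identifiers. The last time is 240 min in the sample titles and 180 min in the protocol, and 240 min was used.

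Slopes of the log2 ratio on time were fitted without a pseudocount to genes listed in every library of a fraction (limma 3.58.1, R 4.3.3, empirical Bayes with trend, two-sided, Benjamini-Hochberg over all genes). Slope differences used the 24 libraries of both fractions. Half-lives were least-squares fits of an exponential, found by a search over decay rates (numpy 2.4.6). Scripts were tested on simulated data. Alternatives changed the scaling, filters, pseudocount, times, block and replicates. The members, gene lists and named genes were chosen with earlier results of these data known. Members were described in full when they had the lowest or highest total RNA slope of a role group, differed between fractions, rose, or belonged to a paralog pair. Any others were described after their values were seen. Pathway genes of the list that were untested were not analysed here.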

Additional observations from a re-analysis of the deposited data

Results flagged for a closer look

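For 20 slope differences between fractions the test of the difference itself passed (limma, Benjamini-Hochberg adjusted over all genes), so they are listed with their size in log2 units per h. Without the nuclear 30 min library of replicate 1, which stood apart, all 19 differences between nucleus and cytosol passed. Slopes were lower in the nucleus than in the cytosol for Eif4a2 (-0.72), Eif2d (-0.43), Eif2b3 (-0.33) and Eif3b (-0.28). They were higher in the nucleus for Eif1ax (0.10), Eif3h (0.11), Eif4a1 (0.11), Eif4a3 (0.12), Eif4e (0.12), Eif4b (0.15), Eif2s1 (0.17), Eif3l (0.18), Eif1a (0.19), Eif2s3x (0.19), Eif3c (0.20), Eif3e (0.21), Eif3j2 (0.21), Eif5b (0.24) and Eif3a (0.25). The slope of Eif2b3 was lower in the membrane fraction than in the cytosol (-0.36).

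Those of Eif2d, Eif3a, Eif3b, Eif3j2 and Eif5b passed without each replicate in turn. Those of Eif1ax, Eif3h, Eif4a2, Eif4a3, Eif4b and Eif4e passed in none of these 3 fits. With mitochondrial scaling 0 of the 19 differences between nucleus and cytosol passed, beside 7 lower and 1 higher of all 11232 genes. That of Eif2b3 between membrane and cytosol passed, where 6276 of all 11086 genes were lower. With the harvest (time and replicate number) as a block, 18 of the 20 passed, and those of Eif1ax and Eif4e did not.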

How the results depend on the processing

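Of 149 slopes and slope differences of members that passed the test, 2151 values under alternatives kept direction and side of the threshold in 1744 cases, kept only the direction in 312 and turned in 95. Restricting the fit to genes listed in all 48 libraries kept all 149, and leaving out the nuclear 30 min library of replicate 1 kept all 45 it touched and gave 16 members with a higher slope in nucleus than cytosol. Read depth is unknown, so its part in any value could not be assessed.

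Counts of members that moved by more than 1.5 times were these. With centring, falls and rises relative to the median gene were 8 and 29 (total RNA), 7 and 32 (nucleus), 9 and 27 (cytosol) and 10 and 17 (membrane), and 4 members were lower in membrane than cytosol. With mitochondrial scaling, 42 fell and 0 rose in total RNA, 5 fell in the nucleus, 3 fell and 0 rose in the cytosol and 0 rose in the membrane fraction. Under it 0 were lower and 0 higher in nucleus than cytosol (all 11232 genes: 7 and 1). In membrane than cytosol 43 were lower (all 11086 genes: 6276). With 30 to 120 min only, 11 fell in the nucleus (5669 of 14320 genes) and 22 in the cytosol (6349 of 12814 genes). Over these times 0 rose in each of the 4 fractions. In nucleus than cytosol 0 were higher (370 of 11941 genes), and in membrane than cytosol 7 were lower (442 of 11813 genes). Taking the last time as 180 min, 1 rose in total RNA, 0 rose in the membrane fraction and 2 were lower in membrane than cytosol. For 240 against 30 min, 0 rose in the membrane fraction and 4 were lower in membrane than cytosol. The single membrane rise, Eif4ebp1, was also lost (0) without the limma trend and with genes listed in 2 or more libraries at each time. A pseudocount of 1 left 2 lower in nucleus than cytosol and 0 lower in membrane than cytosol.

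Without 1 replicate, falls ranged from 18 to 27 in total RNA, 19 to 26 in the nucleus, 31 to 32 in the cytosol and 19 to 36 in the membrane fraction. Rises ranged from 0 to 1 in total RNA, nucleus and cytosol and were 0 in the membrane fraction. Members lower in nucleus than cytosol ranged from 2 to 3, higher from 4 to 10, and lower in membrane than cytosol from 0 to 1. Among all genes, the share lower in nucleus than cytosol ranged from 1.66% to 5.9% and the share higher from 2.73% to 5.79%.

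Median half-lives moved to 262 min (mitochondrial scaling), 306 min (30 to 120 min), 391.8 min (last time 180 min) and 422 min (level at 0 min fixed at 1) for total RNA. For the cytosol they moved to 2727 min (mitochondrial scaling), 258 min (last time 180 min) and 427 min (level fixed), and for the membrane fraction to 96.7 min (mitochondrial scaling) and 160 min (30 to 120 min). Centring gave no finite median in any fraction, and mitochondrial scaling gave none in the nucleus.

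Centring turned the called fall to a slope above 0 for total RNA of Eif1 (0.0696), Eif2ak2 (0.114), Eif2b1 (0.0515), Eif2b4 (0.1065), Eif2s1 (0.1457), Eif3b (0.1447), Eif3d (0.1479), Eif3g (0.1197), Eif3j2 (0.1199), Eif3l (0.1234), Eif4a1 (0.118) and Eif5b (0.0624). It did so for the nucleus of Eif1 (0.1107), Eif2ak1 (0.0038), Eif2b1 (0.1696), Eif2b2 (0.0002), Eif2b4 (0.1901), Eif2s3y (0.1632), Eif3a (0.1087), Eif3b (0.0442), Eif3g (0.1599), Eif4a3 (0.0727), Eif4b (0.1532), Eif4e (0.1302), Eif4ebp2 (0.2064) and Eif5b (0.1038). It did so for the cytosol of Eif1 (0.0999), Eif1ax (0.1746), Eif1b (0.0023), Eif2a (0.1009), Eif2ak2 (0.0555), Eif2b1 (0.0554), Eif2b3 (0.0259), Eif2b4 (0.0426), Eif2b5 (0.235), Eif2s1 (0.1036), Eif3c (0.1696), Eif3d (0.172), Eif3e (0.1507), Eif3g (0.1394), Eif3h (0.1958), Eif3j1 (0.11), Eif3j2 (0.0495), Eif3l (0.0524), Eif3m (0.2097), Eif4a1 (0.1186), Eif4a2 (0.0153), Eif4g2 (0.2063), Eif4g3 (0.023) and Eif5a2 (0.2181). It did so for the membrane fraction of Eif1 (0.0822), Eif1ax (0.1667), Eif1b (0.0349), Eif2a (0.0501), Eif2ak2 (0.0663), Eif2b1 (0.0538), Eif2b4 (0.0292), Eif2b5 (0.1659), Eif2d (0.1039), Eif2s1 (0.06), Eif3b (0.1523), Eif3d (0.0407), Eif3g (0.0486), Eif3h (0.165), Eif3j1 (0.1034), Eif3j2 (0.1176), Eif3l (0.0474), Eif3m (0.0713), Eif4a1 (0.0506), Eif4e (0.024) and Eif4g3 (0.0492). Mitochondrial scaling reversed the sign for total RNA of Eif4ebp1 (-0.0314). It did so for the nucleus of Eif2b1 (0.0463), Eif2b4 (0.0668), Eif2s3y (0.0399), Eif3g (0.0366), Eif4b (0.0299), Eif4e (0.0069) and Eif4ebp2 (0.0831). It did so for the cytosol of Eif1ax (0.0513), Eif2b5 (0.1118), Eif3c (0.0463), Eif3d (0.0487), Eif3e (0.0274), Eif3g (0.0161), Eif3h (0.0726), Eif3m (0.0864), Eif4g2 (0.0831) and Eif5a2 (0.0948). It did so for the membrane fraction of Eif4ebp1 (-0.1542). Over 30 to 120 min the slope of Eif2b4 for the nucleus was 0.0082, of Eif4e3 for total RNA -0.0783, of Eif4ebp1 for total RNA -0.0553 and of Eif4g2 for the cytosol 0.068. With a pseudocount of 1 the nuclear minus cytosolic slope of Eif4a2 was 0.0117. A slope above 0 after centring means a slower decline than the median gene and not a rise of the deposited ratio. Beyond the scaling and the smaller sets of libraries and times themselves, the cause was not tested.

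Correlations between libraries with the same replicate number did not all exceed 0.1 in any comparison, so the numbers were not taken to pair the samples across times. Deviations from the group means of nuclear and cytosolic libraries with the same number and time correlated with a median of 0.0134 and a lowest value of -0.0959 (different numbers: median -0.0078). For membrane and cytosolic libraries all 12 values were above 0, from 0.0321 to 0.1673 with a median of 0.0491 (different numbers: median -0.0284). Fractions of 1 harvest come from the same cells, and with the harvest as a block 4 members were lower and 13 higher in nucleus than cytosol and 1 lower in membrane than cytosol. With the replicate block, falls and rises were 26 and 2 (total RNA), 23 and 1 (nucleus), 35 and 1 (cytosol) and 33 and 1 (membrane), 4 members were lower and 14 higher in nucleus than cytosol, and 1 was lower in membrane than cytosol.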
